A study of Mus musculus with 11 samples.

Results

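The transcripts of 10 splicing regulators of striated muscle were followed in the mouse heart: Rbm20, Rbm24, Rbfox1, Rbfox2, Mbnl1, Mbnl2, Celf1, Celf2, Qk and Ptbp1. They were taken by gene identifier from a table of 22608 genes in 11 hearts, and all 10 were among the 11319 genes that passed the filter on low counts. The study asked whether JZL184, which blocks the breakdown of the endocannabinoid 2-arachidonoylglycerol by monoacylglycerol lipase, alters the heart of a mouse model of Williams–Beuren syndrome. Complete deletion (CD) mice are heterozygous for a deletion of the interval from Gtf2i to Fkbp6 on chromosome 5, and their wild-type (WT) littermates served as controls. All mice were males aged 8–16 weeks on a C57BL/6J background and received daily i.p. injections for 10 days, of either 8 mg/kg JZL184 or its vehicle (VEH). The groups held 3 CD VEH, 3 CD JZL184, 2 WT VEH and 3 WT JZL184 mice. None of the 10 genes lies on the chromosome of the deletion.

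Exons of a heart transcript are kept or skipped according to the RNA-binding proteins that sit on and beside them. RBM20 and RBM24 act mainly in striated muscle, where RBM20 represses exons of titin and other sarcomere and calcium-handling transcripts, and RBM24 favours inclusion of many muscle exons. RBFOX proteins bind the motif UGCAUG, MBNL proteins bind GC dinucleotides between pyrimidines and drive the switch from fetal to adult exon choice, and CELF proteins bind UG-rich RNA and often act against MBNL. QKI, the product of Qk, binds ACUAA elements, and PTBP1 binds pyrimidine tracts, represses muscle exons and is known to decline as muscle cells differentiate. The counts described here are sums over all transcripts of a gene, so they give the amount of each regulator's RNA and say nothing of which exons it or its targets used.

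In GRCm38, the build of the files, the genes lie as follows. Rbm20 (ENSMUSG00000043639.14, chr19:53677306-53867080, plus strand) and Rbm24 (ENSMUSG00000038132.5, chr13:46418434-46431095, plus strand) are the RBM genes of the set. The Rbfox genes are Rbfox1 (ENSMUSG00000008658.15, chr16:5885355-7411526, plus strand) and Rbfox2 (ENSMUSG00000033565.16, chr15:77078990-77307004, minus strand). The muscleblind genes are Mbnl1 (ENSMUSG00000027763.13, chr3:60472830-60629750, plus strand) and Mbnl2 (ENSMUSG00000022139.16, chr14:120275669-120431697, plus strand). Celf1 (ENSMUSG00000005506.16, chr2:90940382-91019497, plus strand) and Celf2 (ENSMUSG00000002107.18, chr2:6539694-7509563, minus strand) lie on the same chromosome. Qk (ENSMUSG00000062078.14, chr17:10202601-10319854, minus strand) and Ptbp1 (ENSMUSG00000006498.16, chr10:79854427-79864771, plus strand) complete the set.

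Reads assigned to genes came to between 69660232 and 92251443 per mouse, and the lowest count of any regulator in any mouse was 1292, for Rbfox1. Mitochondrially encoded transcripts took 39.41–41.15% of counts in WT VEH, 44.96–46.6% in WT JZL184, 43.53–44.68% in CD VEH and 36.39–40.15% in CD JZL184. This share was thus highest in the groups where most regulators were lowest. Its part in the differences was not tested beyond a fit without these genes, given with the alternatives at the end. Levels are given as CPM, the count of a gene scaled by the mouse's total count and its TMM factor, and differences were tested with the quasi-likelihood test of edgeR in a single model of the 4 groups, with p-values adjusted over all 11319 genes. A gene is called higher or lower when its adjusted p is below 0.05. All 14 tested genes of the deleted interval separated the genotypes, with every CD mouse below every WT mouse and median log2 fold-changes of −1.01 in CD VEH relative to WT VEH and −0.91 in CD JZL184 relative to WT JZL184.

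Per length of the longest annotated transcript, as CPM divided by length in kilobases (FPKM), Rbm24 and Rbm20 were the most abundant of the set over the 11 mice, with 33.3 ± 6.6 and 32.6 ± 7.71 FPKM (SD, n = 11). Qk followed with 27.0 ± 4.36 FPKM, and these 3 levels lay within their spread over mice. Mbnl2 had 20.4 ± 2.25 FPKM and Mbnl1 14.9 ± 0.738 FPKM, a gap wider than either spread. Rbfox2 (9.72 ± 1.33 FPKM), Celf1 (9.01 ± 0.909 FPKM), Ptbp1 (8.61 ± 1.3 FPKM) and Rbfox1 (7.55 ± 1.18 FPKM) formed a lower tier in which neighbours did not differ beyond their spread. Within this tier the order differed between groups, since Ptbp1 was the lowest in WT VEH (7.2 ± 0.408 FPKM) and CD JZL184 (7.56 ± 0.397 FPKM) and the highest in CD VEH (9.6 ± 0.709 FPKM) and WT JZL184 (9.6 ± 1.07 FPKM). Celf2 was the least abundant, with 4.54 ± 0.699 FPKM. The order also depends on the transcript length assigned to each gene, which ran from 3061 bases for Rbfox1 to 8856 bases for Celf2.

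The sequence before the start of 2 of these genes is shown because Rbm24 and Ptbp1 moved in opposite directions and each has 1 start in the RefSeq table used (GRCm38.p6), which has entries for 8 of the 10 regulators and none for Rbm20 and Rbfox2. The window runs from 220 to 21 bases before the start, 5′ to 3′ on the strand of the gene, with matches to the E-box (CANNTG, the element bound by basic helix-loop-helix factors such as the myogenic factors) in capitals.
Rbm24, chr13:46418080-46418279, plus strand: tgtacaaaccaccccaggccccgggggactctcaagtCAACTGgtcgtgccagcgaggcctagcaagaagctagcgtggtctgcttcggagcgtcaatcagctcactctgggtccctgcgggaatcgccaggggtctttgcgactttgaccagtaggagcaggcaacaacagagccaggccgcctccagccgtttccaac
Ptbp1, chr10:79854212-79854411, plus strand: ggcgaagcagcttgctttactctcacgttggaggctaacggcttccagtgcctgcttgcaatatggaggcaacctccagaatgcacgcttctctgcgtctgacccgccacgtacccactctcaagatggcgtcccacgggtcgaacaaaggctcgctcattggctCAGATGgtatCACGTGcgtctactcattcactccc
The Rbm24 window held 1 E-box and the Ptbp1 window 2, and 58.6% of the 32851 mouse promoter windows of this length held at least 1 on either strand. The Ptbp1 window also held 1 CCAAT box (CCAAT, in 29.4% of all windows). Neither held a GC box (GGGCGG, 28.7%), TATA box (TATAAA, 10.3%), MEF2 site (1.35%) or CArG box (1.24%). A match says only that these letters are present.

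In vehicle-treated mice, 8 of the 10 regulators were lower in CD than in WT hearts, Ptbp1 was higher, and Mbnl1 was not called. The 8 lower transcripts were Rbm20, Rbm24, Rbfox1, Rbfox2, Mbnl2, Celf1, Celf2 and Qk, with decreases of between 12.6% (Celf1) and 33.6% (Rbm20). Over all tested genes, 15.4% were called lower and 15.0% higher in this comparison. The median log2 fold-change was −0.34 over the 10 regulators and 0.01 over all tested genes.

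JZL184 had the opposite direction in CD and in WT hearts. In CD mice, the same 8 regulators were higher under JZL184 and Ptbp1 was lower, against 16.8% of all tested genes called higher and 17.0% called lower. In WT mice, JZL184 lowered 7 of the 10 and raised Ptbp1, against 14.0% of tested genes called lower and 15.4% called higher. The median log2 fold-change of the 10 was 0.34 in CD and −0.36 in WT mice. With JZL184 in both genotypes, 7 regulators were higher in CD than in WT mice and Ptbp1 was lower, beside 18.2% of tested genes called higher and 20.1% called lower. These comparisons share groups, so they do not count as separate evidence of one pattern. CD VEH enters the first and the second, and WT VEH the first and the third.

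**Figure D1:**
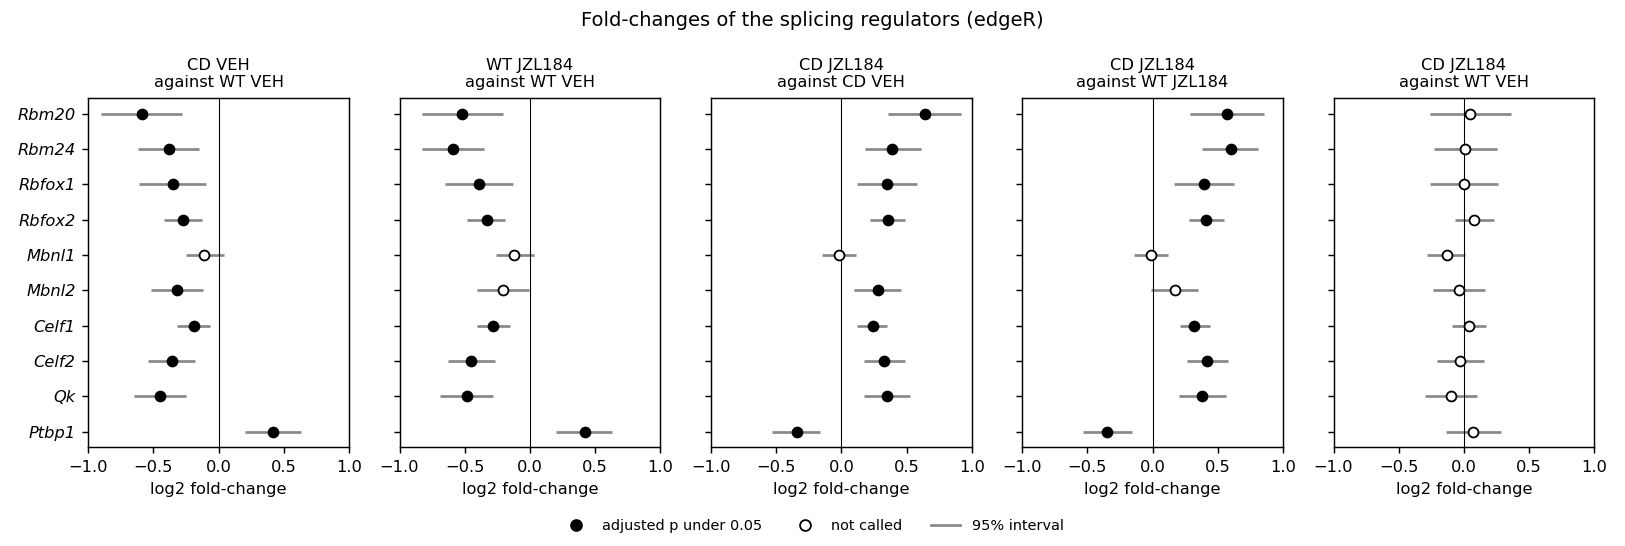
Log2 fold-change of each splicing regulator (points) with its 95% interval (lines) in 5 comparisons of the 4 groups, from edgeR; filled points have an adjusted p below 0.05. The 8 regulators that were called lower lie left of 0 in CD VEH relative to WT VEH and right of 0 in CD JZL184 relative to CD VEH, Ptbp1 lies on the other side, and no point is filled in CD JZL184 relative to WT VEH.

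Rbm20 was 194 and 188 CPM in WT VEH mice and 134, 129 and 118 CPM in the 3 CD VEH mice. It was 148, 104 and 148 CPM in WT JZL184 and 197, 173 and 222 CPM in CD JZL184 mice. Every WT VEH and CD JZL184 mouse thus stood above every CD VEH and WT JZL184 mouse. Rbm20 fell by 0.59 ± 0.14 (SE) on the log2 scale in CD VEH relative to WT VEH (adjusted p = 0.0115), the largest decrease of the 10. It rose by 0.64 ± 0.13 with JZL184 in CD mice (adjusted p = 0.00488) and fell by 0.52 ± 0.14 with JZL184 in WT mice (adjusted p = 0.0197).

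Rbm24 was 128 and 115 CPM in WT VEH and 100, 92.8 and 85.9 CPM in CD VEH mice. WT JZL184 mice had 90.3, 69.3 and 82.5 CPM, and CD JZL184 mice 122, 114 and 131 CPM. The groups did not overlap along the same line as for Rbm20. Rbm24 fell by 0.38 ± 0.11 in CD VEH relative to WT VEH (adjusted p = 0.022) and rose by 0.39 ± 0.1 with JZL184 in CD mice (adjusted p = 0.0116). Its largest decrease was with JZL184 in WT mice, by 0.59 ± 0.11 on the log2 scale (adjusted p = 0.0044), or by 33.5%.

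The Rbfox pair moved together. Rbfox1, the paralog most restricted to muscle and neurons, was 27.1 and 25.6 CPM in WT VEH, 22.1, 18.1 and 20.1 CPM in WT JZL184, 22.5, 22.6 and 16.9 CPM in CD VEH and 26.8, 25.4 and 26.9 CPM in CD JZL184 mice. The more widely expressed Rbfox2 was 78.5 and 68.7 CPM in WT VEH, 59.0, 56.2 and 60.0 CPM in WT JZL184, 60.4, 61.8 and 60.4 CPM in CD VEH and 74.6, 79.3 and 79.7 CPM in CD JZL184 mice. For both genes the lowest WT VEH or CD JZL184 mouse lay above the highest CD VEH or WT JZL184 mouse. The log2 fold-change of CD VEH from WT VEH was −0.35 ± 0.12 for Rbfox1 (adjusted p = 0.0406) and −0.27 ± 0.07 for Rbfox2 (adjusted p = 0.0127). With JZL184 in CD mice it was 0.35 ± 0.11 for Rbfox1 (adjusted p = 0.0246) and 0.36 ± 0.06 for Rbfox2 (adjusted p = 0.00271). The ratio of Rbfox2 to Rbfox1 counts within a mouse was between 2.67 and 3.58 in the 11 mice, and its group ranges overlapped.

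The muscleblind genes parted from each other. Mbnl1, whose protein is the main muscleblind protein of adult striated muscle, was 92.4 and 87.6 CPM in WT VEH, 86.4, 80.7 and 81.7 CPM in WT JZL184, 84.3, 87.2 and 79.0 CPM in CD VEH and 84.9, 78.2 and 83.4 CPM in CD JZL184 mice. It was the only one of the 10 that the edgeR model without a length offset called in none of the comparisons, and its spread over the 11 mice, a coefficient of variation of 4.96%, was the smallest. Its log2 fold-change in CD VEH relative to WT VEH was −0.11, with a 95% interval from −0.25 to 0.04 (adjusted p = 0.232). With JZL184 in CD mice it was −0.02, with an interval from −0.15 to 0.11 (adjusted p = 0.786). The first interval holds the decrease found for Celf1, so equality of the vehicle groups was not shown.

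Mbnl2 was 125 and 127 CPM in WT VEH and 97.7, 105 and 99.3 CPM in CD VEH mice. CD JZL184 mice had 125, 119 and 124 CPM, near WT VEH, while WT JZL184 mice spread over 121, 93.5 and 112 CPM. Mbnl2 fell by 0.32 ± 0.09 in CD VEH relative to WT VEH (adjusted p = 0.0221) and rose by 0.28 ± 0.08 with JZL184 in CD mice (adjusted p = 0.0215). In WT mice the difference with JZL184 was −0.21 ± 0.09 (adjusted p = 0.102). Without WT JZL184 mouse A, the highest of its group, that difference was −0.29 (adjusted p = 0.0193), the only 1 of 17 alternatives that called it. Over all 17 it lay between −0.29 and −0.08, with adjusted p up to 0.475. The ratio of Mbnl2 to Mbnl1 counts within a mouse was 1.21 ± 0.0491 in CD VEH and 1.49 ± 0.0232 in CD JZL184 (SD, n = 3), with no overlap, while WT JZL184 (1.31 ± 0.132) overlapped both CD VEH and WT VEH (1.4 ± 0.0635, n = 2).

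The CELF genes were both lower in CD VEH. Celf1, whose protein is known to decline after birth in the heart, was 77.0 and 75.7 CPM in WT VEH, 66.3, 61.3 and 61.4 CPM in WT JZL184, 66.0, 69.2 and 65.0 CPM in CD VEH and 77.4, 78.7 and 79.8 CPM in CD JZL184 mice. Celf2 was 49.7 and 43.7 CPM in WT VEH, 34.8, 32.8 and 34.8 CPM in WT JZL184, 35.6, 39.4 and 34.2 CPM in CD VEH and 49.0, 44.6 and 43.9 CPM in CD JZL184 mice. Neither gene overlapped between WT VEH with CD JZL184 and CD VEH with WT JZL184. Under vehicle, Celf1 fell in CD mice by 0.19 ± 0.06 (adjusted p = 0.0285) and Celf2 by 0.36 ± 0.08 (adjusted p = 0.00904). With JZL184 in CD mice, Celf1 rose by 0.24 ± 0.05 (adjusted p = 0.00713) and Celf2 by 0.33 ± 0.07 (adjusted p = 0.00684). In WT mice JZL184 lowered Celf1 by 17.5% and Celf2 by 26.9% (adjusted p = 0.00739 and 0.004).

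Qk, which encodes a STAR-family protein needed for adult muscle exons, had the highest CPM of the set, 291 and 265 in WT VEH and 208, 212 and 190 in CD VEH mice. WT JZL184 mice had 218, 175 and 203 CPM and CD JZL184 mice 255, 255 and 267 CPM. No CD VEH or WT JZL184 mouse reached the lowest of the others. Qk fell by 0.45 ± 0.09 in CD VEH relative to WT VEH (adjusted p = 0.00636), the decrease with the smallest adjusted p of the set, and rose by 0.35 ± 0.08 with JZL184 in CD mice (adjusted p = 0.0094).

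Ptbp1 ran the other way. It was 21.9 and 23.7 CPM in WT VEH, 26.9, 30.7 and 33.7 CPM in WT JZL184, 30.7, 28.1 and 32.5 CPM in CD VEH and 22.6, 25.1 and 24.2 CPM in CD JZL184 mice. The highest WT VEH or CD JZL184 mouse, at 25.1 CPM, stayed below the lowest of the others, at 26.9 CPM. Ptbp1 rose by 33.4% in CD VEH relative to WT VEH (log2 fold-change 0.42 ± 0.1, adjusted p = 0.0105) and fell by 21.2% with JZL184 in CD mice (adjusted p = 0.0117). JZL184 raised it by 33.5% in WT mice (adjusted p = 0.0106).

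**Figure D2:**
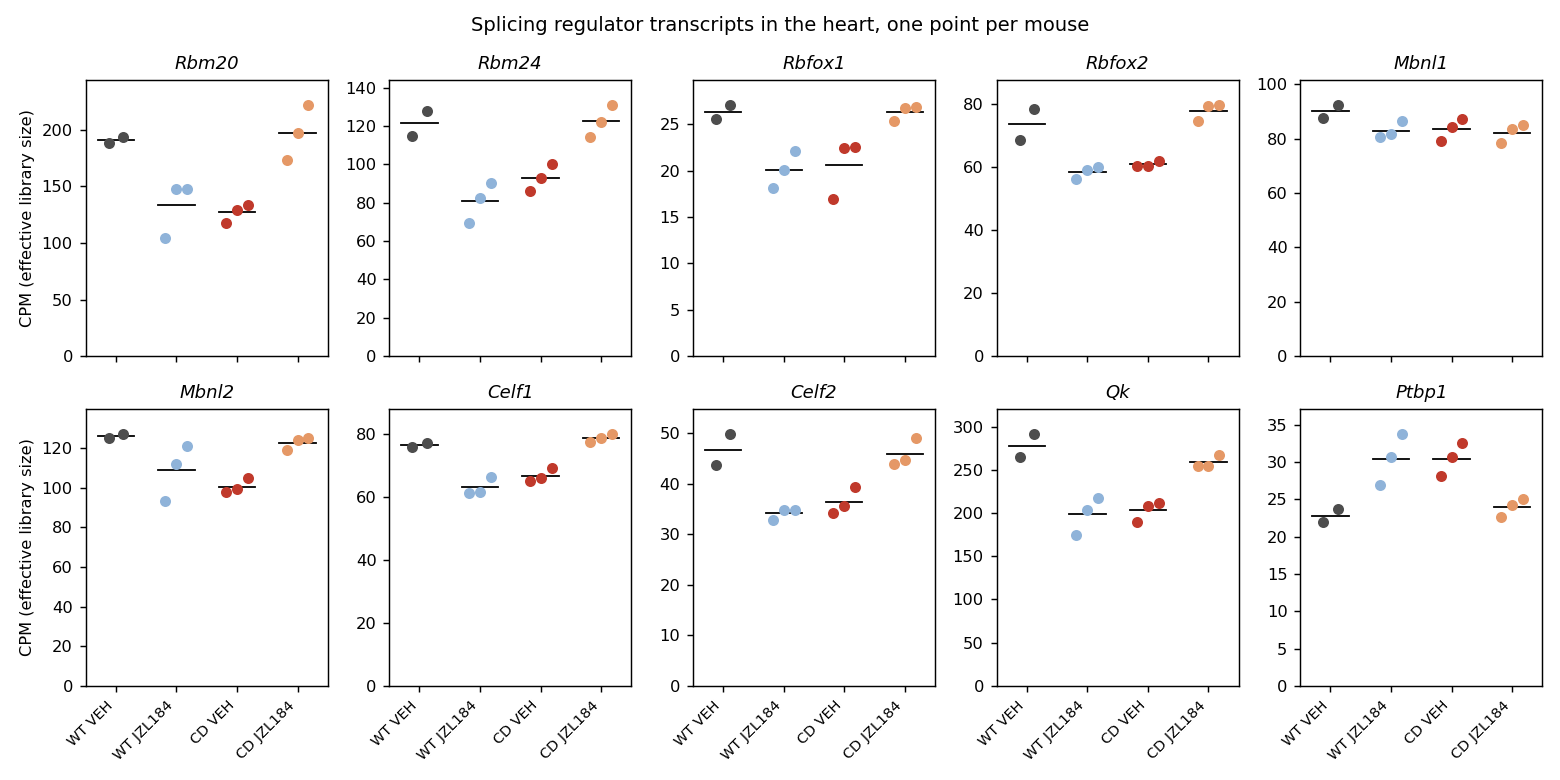
CPM of the 10 splicing regulators (vertical axes, each starting at 0) in each mouse (points), with group means (lines), for WT VEH (n = 2) and the other 3 groups (n = 3 each). In 7 panels all WT VEH and CD JZL184 points lie above all WT JZL184 and CD VEH points, in the Ptbp1 panel they lie below, and the Mbnl1 and Mbnl2 panels overlap.

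Of the 10 regulators, 7 had all 5 WT VEH and CD JZL184 mice above all 6 CD VEH and WT JZL184 mice, 1 (Ptbp1) had them below, and Mbnl1 and Mbnl2 overlapped. Over all tested genes, 13.8% stood above and 14.4% below in this way. WT JZL184 mouse B had the lowest value of the 11 mice for 7 of the 10 regulators. Without it 7 regulators were called with JZL184 in WT mice, against 8 with it, beside 18.5% and 29.4% of all tested genes.

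No regulator was called in CD JZL184 relative to WT VEH, where log2 fold-changes lay between −0.13 (Mbnl1) and 0.08 (Rbfox2). Unadjusted p-values of edgeR were below 0.05 for 0 of the 10, and for 1062 of the 11319 tested genes. DESeq2 also called 0 of the 10. Of all tested genes, edgeR called 0.186% and DESeq2 0.928% in either direction, so few genes of any kind were called. The 95% intervals set how far this goes. They ran from −0.26 to 0.36 for Rbm20 and from −0.23 to 0.25 for Rbm24, and the narrowest ran from −0.09 to 0.17, for Celf1.

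The test of the interaction asked whether the effect of JZL184 differed between genotypes, and it was called for 9 of the 10. The JZL184 effect in CD minus that in WT mice was 1.16 ± 0.19 on the log2 scale for Rbm20 (adjusted p = 0.000612), 0.98 ± 0.15 for Rbm24 (adjusted p = 0.000363), 0.83 ± 0.12 for Qk (adjusted p = 0.000363) and 0.78 ± 0.11 for Celf2 (adjusted p = 0.000275). It was between 0.49 (Mbnl2) and 0.74 (Rbfox1) for the other 4 that were positive, and −0.76 ± 0.13 for Ptbp1 (adjusted p = 0.000741). For Mbnl1 it was 0.09, with an interval from −0.1 to 0.29 (adjusted p = 0.396). Over all tested genes, 25.3% were called positive and 26.2% negative in the interaction.

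Ratios within a mouse do not depend on how libraries are scaled. Those given here set a regulator that was lower in CD VEH over Ptbp1, which was higher, or over Mbnl1. They thus restate differences already seen in these counts. The ratio of Rbm20 to Ptbp1 counts was 7.94 and 8.84 in WT VEH, 3.38–5.48 in WT JZL184, 3.62–4.59 in CD VEH and 6.89–9.19 in CD JZL184 mice. The means were 8.39 ± 0.639, 4.42 ± 1.05, 4.19 ± 0.505 and 8.26 ± 1.22 (SD). The ratio of Rbm24 to Ptbp1 was 4.85–5.84 in WT VEH and 2.64–3.31 in CD VEH mice, and that of Qk to Ptbp1 11.2–13.3 and 5.83–7.57. The groups lay apart in the same way when Rbm20 was set against Mbnl1, with 2.1–2.15 in WT VEH, 1.29–1.81 in WT JZL184, 1.48–1.59 in CD VEH and 2.21–2.66 in CD JZL184 mice.

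**Figure D3:**
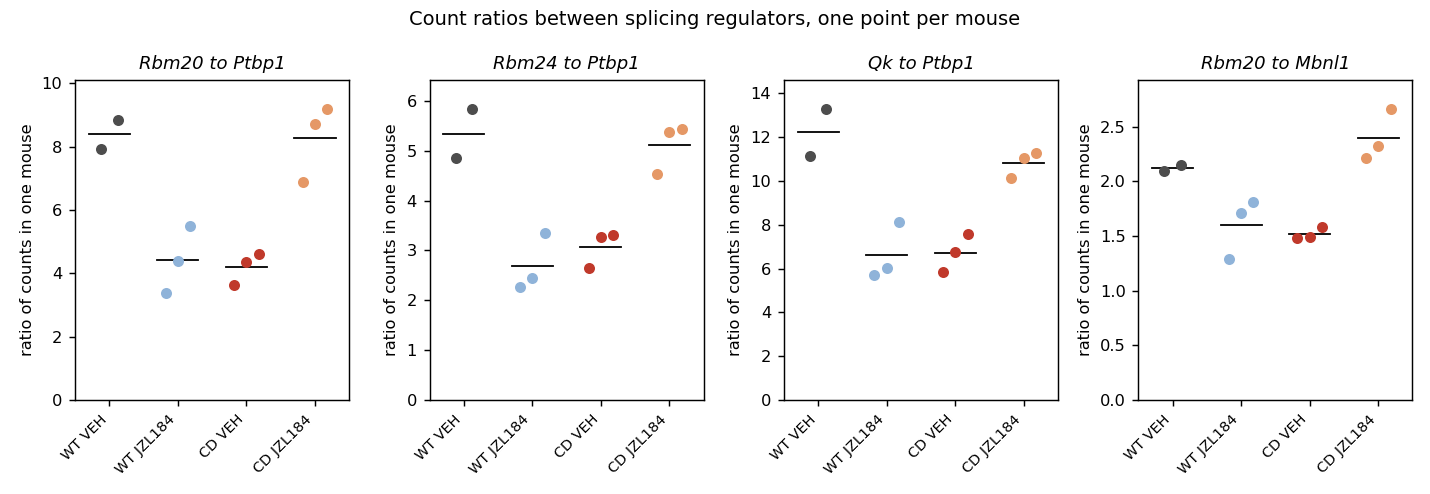
Ratio of the counts of a pair of splicing regulators within a mouse (vertical axes from 0; points, 1 per mouse; lines, group means) in the 4 groups. The Rbm20 to Ptbp1 ratio averages 8.39 in WT VEH and 8.26 in CD JZL184, and 4.19 in CD VEH and 4.42 in WT JZL184.

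Across the 11 mice, the 8 regulators other than Mbnl1 and Ptbp1 varied together, with Pearson's r of log2 CPM between 0.745 (Rbfox2 with Mbnl2) and 0.952 (Rbm24 with Qk). Ptbp1 had r between −0.566 (with Mbnl1) and −0.919 (with Celf2), and Mbnl1 had r between 0.202 and 0.543 with the positive members. These values share the 4 groups and the libraries, so they describe the group differences again and are given without a test.

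The differences moved with transcript length, and most regulators are long. The longest annotated transcript had a median of 5608 bases over the 10 and 3528 bases over the tested genes, and 6 of the 10 (Rbfox2, Mbnl1, Mbnl2, Celf1, Celf2 and Qk) were in the longest quintile of tested genes. Of all genes of that quintile, 33.3% were called lower and 4.94% higher in CD VEH relative to WT VEH, against 2.8% and 32.5% of the shortest quintile. Of the 6 regulators in the longest, 5 were called lower. Rbm24, Rbfox1 and Ptbp1 were in the middle quintile, where 13.5% were lower and 11.7% higher, and Rbm20 in the next, where 20.1% were lower.

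With an offset for length in the model, the decreases of the long genes shrank in CD VEH relative to WT VEH while those of Rbm24 and Rbfox1 did not. The log2 fold-change of Celf1 went from −0.19 to −0.02 (adjusted p = 0.812), that of Celf2 from −0.36 to −0.16 (adjusted p = 0.087), that of Rbfox2 from −0.27 to −0.13 (adjusted p = 0.136) and that of Mbnl2 from −0.32 to −0.23 (adjusted p = 0.0696). Rbm20 (−0.52, adjusted p = 0.0195), Rbm24 (−0.41, adjusted p = 0.0237), Rbfox1 (−0.38, adjusted p = 0.0411), Qk (−0.26, adjusted p = 0.033) and Ptbp1 (0.4, adjusted p = 0.0151) were still called, which makes 5 of 10. Of all tested genes 23.5% were called with the offset. In CD JZL184 relative to CD VEH the same offset also left 5, Rbm20, Rbm24, Rbfox1, Rbfox2 and Ptbp1, with Rbfox2 going from 0.36 to 0.22. Of all tested genes 26.6% were called there. Celf1 went from 0.24 to 0.08 (adjusted p = 0.314), Celf2 from 0.33 to 0.15 (adjusted p = 0.0754), Qk from 0.35 to 0.17 (adjusted p = 0.0819) and Mbnl2 from 0.28 to 0.19 (adjusted p = 0.0764). In WT JZL184 relative to WT VEH the offset left 7 of 8 calls, beside 26.7% of all tested genes. Celf1 was lost there (from −0.28 to −0.14, adjusted p = 0.104), and Celf2 went from −0.45 to −0.3 (adjusted p = 0.00828). With this offset 47.0% of all tested genes were called in the interaction. It was called for 9 of the 10 regulators, the 9 called without the offset, but with smaller values for the long genes. It went from 0.52 to 0.22 for Celf1 (adjusted p = 0.0459), from 0.78 to 0.44 for Celf2, from 0.83 to 0.51 for Qk, from 0.69 to 0.44 for Rbfox2 and from 0.49 to 0.33 for Mbnl2, and it was 1.04 for Rbm20, 1.02 for Rbm24, 0.78 for Rbfox1 and −0.74 for Ptbp1. With an offset for the length of all exons, chosen after seeing the data, Mbnl2 was lost from the interaction (0.22, adjusted p = 0.113), Celf2 was at 0.26 (adjusted p = 0.0268) and Mbnl1 was called negative (−0.32, adjusted p = 0.00687). With that offset Mbnl1 was also called lower in CD JZL184 relative to CD VEH (−0.24, adjusted p = 0.0103) and relative to WT JZL184 (−0.18, adjusted p = 0.0202), and 6 of the 10 regulators were called in the first of these, 4 higher and 2 lower. What links length to the groups was not tested.

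**Figure D4:**
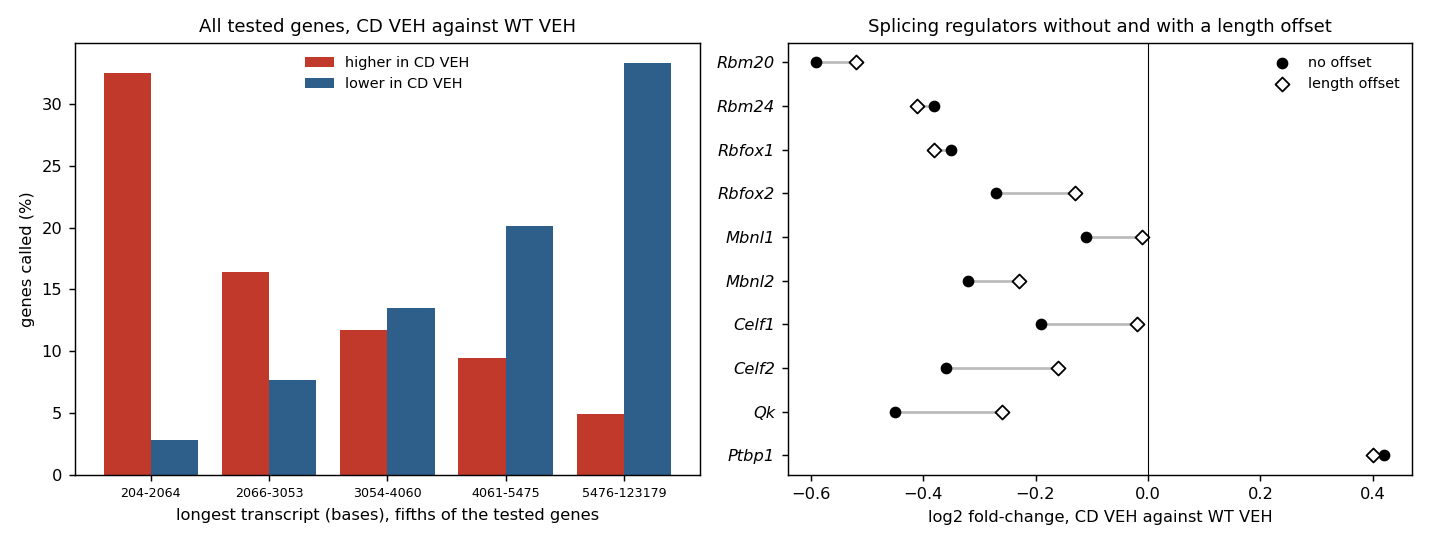
Left, share of tested genes called higher (red) or lower (blue) in CD VEH relative to WT VEH, by quintile of the length of the longest transcript in bases. Right, log2 fold-change of each splicing regulator in the same comparison without (filled circles) and with (open diamonds) a length offset. The share called lower goes from 2.8% in the shortest to 33.3% in the longest quintile, and Rbm24, Rbfox1 and Ptbp1 move least with the offset.

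Among 9 paralogs of the regulators, only Ptbp2, Ptbp3 and Rbm38 passed the filter. Ptbp3, the paralog of Ptbp1 best known from blood cells, had means of 26.1 ± 1.76 CPM in WT VEH, 38.0 ± 2.19 in WT JZL184, 33.2 ± 1.52 in CD VEH and 24.7 ± 0.435 in CD JZL184 mice. It rose by 0.35 ± 0.07 in CD VEH relative to WT VEH (adjusted p = 0.0062) and fell by 0.43 ± 0.06 with JZL184 in CD mice (adjusted p = 0.00235), in the direction of Ptbp1. Ptbp2, the neuronal paralog, had means between 13.1 and 13.9 CPM and a log2 fold-change of −0.09 ± 0.1 in CD VEH relative to WT VEH (adjusted p = 0.504). Rbm38, a close relative of Rbm24, was not called in CD VEH relative to WT VEH but rose by 0.22 ± 0.06 with JZL184 in CD mice (adjusted p = 0.0149) and fell by 0.26 ± 0.06 in WT mice (adjusted p = 0.0126). Mbnl3 had 69–122 counts per mouse and stayed below the filter, as did Rbfox3, Celf3, Celf4, Celf5 and Celf6, with at most 41 counts.

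The other factors of the splicing machinery are given by their counts, and their difference from the 10 regulators was not tested. Of 92 tested genes in the lists of paralogs, other regulators, SR proteins and their kinases, hnRNP proteins and core spliceosome, 9 were higher and 9 lower in CD VEH relative to WT VEH (median log2 fold-change −0.04), a share of 19.6% called, beside 30.4% of all tested genes (15.0% higher, 15.4% lower). These 18 calls rest on 2 WT VEH mice. They fell to 10 without CD VEH mouse A or E, where 17.0% and 17.5% of all tested genes were called. With JZL184 in CD mice 12 were higher and 20 lower, a share of 34.8% beside 33.8% of all tested genes, and with the length offset 12 were higher and 11 lower. These 32 calls fell to 13 without CD VEH mouse A, to 12 without CD VEH mouse E, to 12 without CD JZL184 mouse E and to 19 without CD JZL184 mouse C. Of 23 hnRNP genes 4.35% were called, which is 1 gene, Hnrnpf, with 0.24 ± 0.07 (adjusted p = 0.0222). Of 16 tested tissue-related regulators 4 were lower, a share of 25.0%, among them the stress-granule proteins Tia1 (−0.44 ± 0.09, adjusted p = 0.00693) and Tial1 (−0.27 ± 0.08, adjusted p = 0.0235) and the spliceosome-associated factor Rbm5 (−0.27 ± 0.07, adjusted p = 0.015).

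SR proteins, which bind exonic enhancers and favour exon inclusion, had 7 of 12 members lower and none higher with JZL184 in CD mice, where 17.0% of all tested genes were lower and 16.8% higher. By length, the share lower went from 37.9% in the shortest to 5.07% in the longest quintile. Neither the SR nor the core spliceosome genes were sorted by length. Srsf5 fell by 0.5 ± 0.1 (adjusted p = 0.00405), Srsf7 by 0.42 ± 0.09 (adjusted p = 0.00729) and Srsf3 by 0.42 ± 0.12 (adjusted p = 0.0199). In CD VEH relative to WT VEH, Srsf5 was higher (0.45 ± 0.11, adjusted p = 0.0111), Srsf11 was lower (−0.42 ± 0.07, adjusted p = 0.0038) and the other 10 were not called. Of 8 kinases of SR proteins, 2 were lower and 1 higher in CD VEH relative to WT VEH, a share of 37.5% beside 30.4% of all tested genes, and 1 was higher and 1 lower with JZL184 in CD mice. Srpk2 fell by 0.44 ± 0.08 in CD VEH (adjusted p = 0.00378) and rose by 0.35 ± 0.07 with JZL184 in CD mice (adjusted p = 0.00469). The muscle-specific kinase Srpk3 was the other that was lower in CD VEH (−0.25 ± 0.08, adjusted p = 0.0391), and Clk3, a kinase of the CDC-like family, was higher (0.28 ± 0.1, adjusted p = 0.0462). Clk1, of the same family, fell by 0.33 ± 0.1 with JZL184 in CD mice (adjusted p = 0.0224).

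Core spliceosome genes went both ways. Of 30 tested, 5 were higher and 2 lower in CD VEH than in WT VEH, where 15.0% of all tested genes were higher and 15.4% lower. The 5 included the Sm proteins Snrpg (0.42 ± 0.14, adjusted p = 0.0453) and Snrpe (0.33 ± 0.1, adjusted p = 0.0313) and the 3′ splice site factor U2af1 (0.29 ± 0.07, adjusted p = 0.0117). The 2 that were lower, Sf3a1 (−0.4 ± 0.07, adjusted p = 0.00372) and Sf3a2 (−0.28 ± 0.09, adjusted p = 0.0375), belong to the U2 snRNP. With JZL184 in CD mice 5 were higher, Sf3a1 and Sf3a2 among them, and 6 lower, a share of 36.7% beside 33.8% of all tested genes, the lower ones including Snrpg (−0.45 ± 0.13, adjusted p = 0.0192) and Snrpe (−0.46 ± 0.09, adjusted p = 0.00446).

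**Figure D5:**
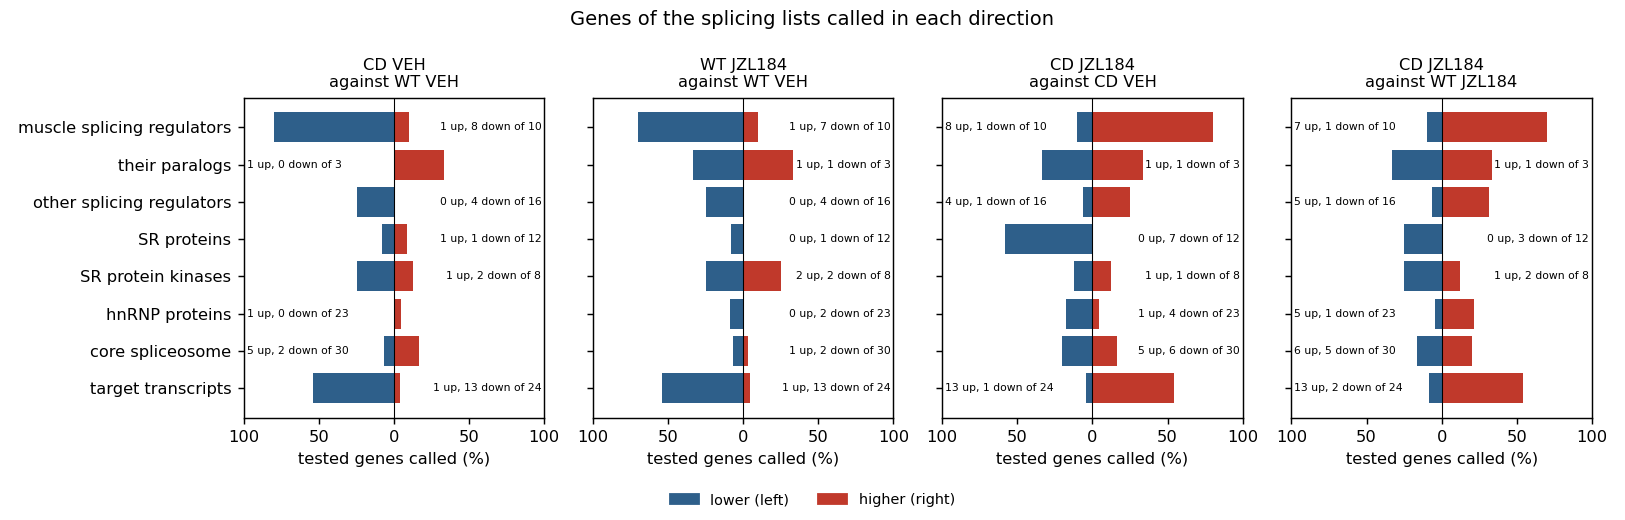
Share of the tested genes of each list called higher (red, right of 0) or lower (blue, left of 0) in 4 comparisons, with counts beside the bars. In CD VEH relative to WT VEH 8 of 10 muscle splicing regulators and 13 of 24 target transcripts were lower, and 9 of the 92 other splicing genes.

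Of 24 transcripts known to be spliced by these regulators in heart, 13 were lower in CD VEH relative to WT VEH, 1 was higher and 10 were not called, where 15.4% of all tested genes, and 33.3% of those in the longest quintile, were lower. Ttn, the titin gene and the best-known target of RBM20, had means of 3400 ± 784 CPM in WT VEH, 1660 ± 590 in WT JZL184, 1620 ± 310 in CD VEH and 2620 ± 759 in CD JZL184 mice. It fell by 1.07 ± 0.3 on the log2 scale in CD VEH (adjusted p = 0.0209), and its difference with JZL184 in CD mice was 0.69 ± 0.27 (adjusted p = 0.0681). Bin1, a membrane-shaping protein of the T-tubules, was the transcript that was higher (0.44 ± 0.15, adjusted p = 0.0438), at 5.01 ± 0.323 CPM in WT VEH and 6.78 ± 0.686 in CD VEH.

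With JZL184 in CD mice 13 of the 24 target transcripts were higher and 1, the triadin gene Trdn, was lower (−0.25 ± 0.09, adjusted p = 0.0404), where 16.8% of all tested genes, and 36.7% of the longest quintile, were higher. Fhod3, a formin of the sarcomere, rose by 0.66 ± 0.11 (adjusted p = 0.00254), Cacna1c, the L-type calcium channel, by 0.64 ± 0.14 (adjusted p = 0.00641) and Ryr2, the calcium release channel, by 0.63 ± 0.16 (adjusted p = 0.0123). In WT mice 13 were lower with JZL184, beside 14.0% of all tested genes and 27.8% of the longest quintile, and Bin1 was higher. These 14 calls rest on 2 WT VEH mice. With a WT JZL184 mouse left out 12–16 were called, beside 18.5–39.6% of all tested genes. Targets such as Ttn are long too, and with the length offset 9 of 24 were called in CD VEH relative to WT VEH, all lower. In that comparison without the offset, 1 was called without WT VEH mouse C, and 8 without WT VEH mouse D or CD VEH mouse E. With JZL184 in CD mice, 9 were called without CD VEH mouse E. Lower or higher counts of a target do not show a change in its splicing.

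The cells of the tissue also differed between groups in their markers. Beside the lower regulators of CD VEH, 6 of 8 endothelial, 5 of 7 smooth muscle and pericyte, 7 of 8 macrophage and 3 of 8 fibroblast markers were higher, and none was lower, where 15.0% of all tested genes were higher. The endothelial markers summed to 640–646 CPM in WT VEH, 943–1020 in WT JZL184, 816–922 in CD VEH and 613–711 in CD JZL184 mice, and the smooth muscle and pericyte markers to 615–624, 889–961, 845–973 and 604–619 CPM. Macrophage markers summed to 159–166, 205–341, 219–277 and 145–169 CPM and fibroblast markers to 737–758, 889–1120, 858–994 and 673–783 CPM, with no defining marker of these lists at 0 in all mice. In these sums every CD VEH and WT JZL184 mouse lay above every other mouse for each of the 4 lists, as for Ptbp1. Of all tested genes, 14.4% separated in this way. Abundant genes weigh most in a sum. Rgs5 had a mean of 450 CPM of 620 in WT VEH and 680 of 888 in CD VEH, and Dcn 378 of 747 and 510 of 934. Acta2 did not follow its list, with 58.8 ± 12.3 CPM in WT VEH and 53.1 ± 11.3 in CD VEH.

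Cardiomyocyte markers summed to 41500–42800 CPM in WT VEH, 32100–40900 in WT JZL184, 36400–39200 in CD VEH and 40100–41100 in CD JZL184 mice. In CD VEH relative to WT VEH 3 of 8 were lower, Myh6 (−0.44 ± 0.16, adjusted p = 0.0493), Actn2 (−0.46 ± 0.11, adjusted p = 0.0106) and Actc1 (−0.31 ± 0.11, adjusted p = 0.043), beside 15.4% of all tested genes. The other 5 were not called, and of these Myl2 (0.25 ± 0.11, adjusted p = 0.0983), Csrp3 (0.24 ± 0.09, adjusted p = 0.0737) and Tnni3 (0.24 ± 0.1, adjusted p = 0.0911) had positive values, so the list had a median of −0.09. In whole tissue, fewer cells of a type and less RNA per cell cannot be told apart. The part of these shifts in the levels of the regulators was not tested. Of 8 atrial and skeletal muscle markers only Nppa passed the filter, and neuron and Schwann cell markers summed to at most 15.1 CPM.

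The calls relative to WT VEH rest on a group of 2 mice. Leaving out either left 1 mouse there, and the spread then came from the other groups. Without WT VEH mouse C, log2 fold-changes of the 10 regulators in CD VEH relative to WT VEH ran from −0.57 to 0.36. With all mice they ran from −0.59 to 0.42. In WT JZL184 relative to WT VEH they ran from −0.51 to 0.36 without that mouse, and from −0.59 to 0.42 with it. Without CD VEH mouse E, 5 regulators were called in CD VEH relative to WT VEH, beside 17.5% of all tested genes. The comparisons of the groups of 3, CD JZL184 with CD VEH and with WT JZL184, called 6–9 and 8–9 regulators without any 1 mouse.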

How the data were processed

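RNA from the hearts of 11 mice was sequenced on a HiSeq3000. The authors deposited estimated counts per gene: reads were quantified by Salmon 0.7.2 against the GRCm38 transcripts of Ensembl release 85 and summed to genes by tximport 1.2.0. The values are not normalized. Columns named a group and a letter, which here names the mouse. Estimated counts were rounded, scaled by TMM factors and tested with edgeR 4.0.16 (R 4.3.3, limma 3.58.1) over genes whose mean log2 CPM reached 1. Gene models were those of GENCODE mouse release 21, which matched 22238 of 22608 genes by identifier. FPKM were computed from CPM and the longest transcript. Log2 CPM for correlations used a prior count of 2. Intervals are 95% intervals of the fitted log2 fold-change. Nothing in the labels states how animals were drawn beyond their group, so p-values measure the spread between these samples.

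The regulators and all gene lists were chosen with earlier results of these data known. The text names all regulators. Other genes were drawn from, and are not all of, up to 3 called genes of each list with the highest and 3 with the lowest log2 fold-change per comparison, plus the 3 genes most correlated with each regulator. Ptbp2, Nppa, the cardiomyocyte markers that were not called and the untested paralogs fall outside that rule: they were chosen after their values were known. Alternatives were DESeq2 1.42.0, RLE and upper quartile factors, no filter, a minimum of 10 counts in each of the mice, a model of just the groups compared, offsets for length and GC content (loess, span 0.5), no mitochondrial genes, an adjusted p under 0.01, and each mouse left out. The length offset on all exons and the block on column letters were added after seeing the data. Some target transcripts that the rule would name are not reported here. The steps were tested on simulated data.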

Additional observations from a re-analysis of the deposited data

Results flagged for a closer look

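The effect of JZL184 differed between CD and WT mice for 9 of the 10 regulators, by the interaction term of the edgeR model with p-values adjusted over all tested genes. The effect in CD minus that in WT mice, on the log2 scale, was 1.16 for Rbm20, 0.98 for Rbm24, 0.74 for Rbfox1, 0.69 for Rbfox2, 0.49 for Mbnl2, 0.52 for Celf1, 0.78 for Celf2, 0.83 for Qk and −0.76 for Ptbp1. In the interaction 25.3% of all tested genes were called positive and 26.2% negative. The count of 9 was the same without any 1 of the 11 mice and with the length offset on the longest transcript, but that offset lowered the values to 0.44 for Rbfox2, 0.22 for Celf1, 0.44 for Celf2, 0.51 for Qk and 0.33 for Mbnl2.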

How the results depend on the processing

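The columns carry letters that are in no sample label, and mice of different groups with the same letter did not deviate together from their group means (correlations from −0.25 to 0.31, and from −0.34 to 0.31 for different letters), so the letters were not taken as pairs. A replicate block on the letter was chosen after seeing the data and left 3 residual degrees of freedom. It called 7 regulators in CD VEH relative to WT VEH, beside 21.2% of all tested genes (30.4% without the block). It called 9 in CD JZL184 relative to CD VEH (34.6%, and 33.8% without the block). In WT JZL184 relative to WT VEH it called 1 (5.22%, and 29.4% without the block). In CD JZL184 relative to WT JZL184 it called 3 (10.4%, and 38.3%), and in the interaction 9 (40.3%, and 51.5%). In CD VEH relative to WT VEH, where 9 regulators were called, 5 were called with the length offset, beside 23.5% of all tested genes. The length offset on all exons (chosen after seeing the data) also called 5, beside 23.9%. At an adjusted p under 0.01 there were 2, and with a CD VEH mouse left out 5–9, beside 17.0–31.2% of all tested genes. In CD JZL184 relative to CD VEH, also 9, the counts were 5 with the length offset, 5 at an adjusted p under 0.01 and 6–9 with a mouse left out. In WT JZL184 relative to WT VEH, where 8 were called, the count was 5 when the model held just those groups, beside 14.6% of all tested genes. It was 5 at an adjusted p under 0.01. With a WT JZL184 mouse left out it was 7–9, beside 18.5–39.6% of all tested genes. DESeq2, RLE factors, the GC offset, the minimum of 10 counts and leaving out mitochondrial genes gave the main count in every comparison. The 9 regulators other than Mbnl1 kept the direction of their fold-change in every alternative run for these comparisons, for CD JZL184 relative to WT JZL184 and for the interaction. The all-exon offset called 6 in CD JZL184 relative to CD VEH (4 higher, 2 lower), beside 27.6% of all tested genes. The small differences of Mbnl1 changed sign in some alternatives, and the all-exon offset called it lower in CD JZL184 relative to CD VEH (−0.24) and to WT JZL184 (−0.18). The differences that changed sign were 0.14 in CD VEH relative to WT VEH and 0.08 in WT JZL184 relative to WT VEH with the all-exon offset, −0.05 to 0.02 with a mouse left out in CD JZL184 relative to CD VEH (0.02 without CD VEH mouse C and 0.01 without CD JZL184 mouse C), 0.0 without a filter, 0.0 with at least 10 counts and −0.04 to 0.02 with a mouse left out in CD JZL184 relative to WT JZL184 (0.02 without WT JZL184 mouse A or without CD JZL184 mouse C), and −0.07 and −0.32 with the length offsets in the interaction, where the all-exon offset also lost Mbnl2 (0.22). Hnrnpr in WT JZL184 relative to WT VEH was 0.13 and 0.04 with the length offsets, and Syncrip in the interaction was −0.02 with the first. Upper quartile factors moved the median log2 fold-change of all genes to 0.05 in CD VEH relative to WT VEH. The cause of these changes was not tested.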

Other observations

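The genes whose log2 CPM followed a regulator most closely over the 11 mice were Fsd2 (r = 0.99), Herc3 and Mfn1 for Qk, Ice1, Meis1 and Insr for Rbm20 (r = 0.985, 0.985 and 0.983), and Ccdc141, Ppara and Strip2 for Rbm24 (r = 0.98, 0.978 and 0.977). Meis1 encodes a homeobox factor of the heart, Insr the insulin receptor and Ppara a nuclear receptor of fatty acid oxidation. For Celf2 they were Prune2, Qser1 and Esrrg (r = 0.988, 0.98 and 0.98), for Celf1 Acss1, Pi4ka and Hk1 (r = 0.987, 0.984 and 0.982), and for Mbnl2 Fbxo40, Filip1 and Atf6 (r = 0.986, 0.985 and 0.984). The closest genes to Ptbp1 were the actin regulator Coro1c (r = 0.975) and the interferon-related genes Oasl2 (r = 0.969) and Ifih1 (r = 0.968). Mbnl1 had Upf2, a factor of nonsense-mediated decay, as its closest gene (r = 0.958), followed by Zfp780b (r = 0.915) and Pcmtd1 (r = 0.859). For Rbfox1 they were Gga2, the desmosome gene Dsg2 and Asb15 (r = 0.969, 0.967 and 0.96), and for Rbfox2 Zmynd11, Cdc23 and Kpnb1 (r = 0.979, 0.973 and 0.972). All these genes were picked as the highest of the tested genes, the points share groups and libraries, and no test was made.

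Ptbp3 had a larger interaction than Ptbp1, −0.97 ± 0.09 against −0.76 ± 0.13 on the log2 scale, and the difference between them was not tested. Srrm4, known as a neuronal microexon factor, had 14.7 CPM in CD VEH and 22.5 CPM in CD JZL184 hearts (log2 fold-change 0.62 ± 0.17, adjusted p = 0.0175 by edgeR).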
